A study of Mus musculus with 1 sample.

Results

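The Notch pathway genes described here were the ligands Jag1, Jag2, Dll1 and Dll4, the receptors Notch1, Notch2, Notch3 and Notch4, and the target genes Hes1 and Hey1. They were chosen by symbol, and all 10 were found among the 32285 genes of the deposited table. The tissue was the pancreas of 2-week-old Scap f/f mice, in which the Scap gene carries a floxed allele and no Cre is present, so that this genotype is the control arm of a study of SCAP loss. The pancreata of 5 to 6 mice were pooled into 1 single-cell library, which therefore holds no replicate, and the library of the pancreas lacking Scap was not analysed here. Every interval below covers counting error only, and no test between animals could be made. The question addressed was in which cell classes of the young pancreas the Notch genes were found, with the cells of vessels set beside the epithelium.

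Notch receptors are membrane proteins that are cut after they bind a Jagged or Delta-like ligand on a neighboring cell, and the released intracellular part joins the DNA-binding protein RBPJ to turn on genes of the Hes and Hey families. In vessels, Dll4 and Notch4 are known from the endothelium, Notch3 from the mural cells (smooth muscle cells and pericytes) that wrap it, and Jag1 from both. In the pancreas, Notch activity with Hes1 is known to hold back the differentiation of progenitors and to remain in duct and centroacinar cells.

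In GENCODE M21 coordinates (mm10) the ligands lie with Jag1 at chr2:137081456-137116644, Jag2 at chr12:112907819-112929776, Dll1 at chr17:15367354-15376872 and Dll4 at chr2:119325784-119335962, and the receptors with Notch1 at chr2:26457903-26516663, Notch2 at chr3:98013527-98150361, Notch3 at chr17:32120820-32166852 and Notch4 at chr17:34564268-34588503. The targets are Hes1 at chr16:30064384-30067796 and Hey1 at chr3:8663359-8667256. The genes that led in endothelial and in mural barcodes are introduced by the sequence in front of their start sites, as examples of genes highest in each of the vessel classes. RefSeq (GRCm38.p6) gave windows for 8 of the 10 members, and not for Hes1 and Hey1. The longest run of each 250-base upstream window that lay outside every GENCODE M21 exon is printed 5′ to 3′ on the gene's strand. Capitals mark matches on either strand to AGGAAG, a sequence bound by ETS factors. Shorter or other sequences bound by ETS factors were not searched for. For the endothelial-led genes these were chr2:119325565-119325783 (plus strand, Dll4) and chr17:34564045-34564267 (plus strand, Notch4).
Dll4: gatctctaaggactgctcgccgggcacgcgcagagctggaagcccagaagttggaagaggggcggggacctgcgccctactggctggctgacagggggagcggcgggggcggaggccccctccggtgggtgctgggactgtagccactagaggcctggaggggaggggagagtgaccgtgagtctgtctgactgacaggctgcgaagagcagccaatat
Notch4: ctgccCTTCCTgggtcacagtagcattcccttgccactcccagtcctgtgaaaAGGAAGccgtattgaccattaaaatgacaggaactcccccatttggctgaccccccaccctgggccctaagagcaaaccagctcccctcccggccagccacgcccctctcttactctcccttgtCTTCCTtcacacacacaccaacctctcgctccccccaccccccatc
For the mural-led genes they were chr17:32166891-32167140 (minus strand, Notch3) and chr2:137116645-137116770 (minus strand, Jag1).
Notch3: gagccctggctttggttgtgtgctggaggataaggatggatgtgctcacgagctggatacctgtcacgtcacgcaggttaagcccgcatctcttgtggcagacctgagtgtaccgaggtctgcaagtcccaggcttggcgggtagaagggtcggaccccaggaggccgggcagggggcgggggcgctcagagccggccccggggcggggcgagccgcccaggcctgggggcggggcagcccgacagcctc
Jag1: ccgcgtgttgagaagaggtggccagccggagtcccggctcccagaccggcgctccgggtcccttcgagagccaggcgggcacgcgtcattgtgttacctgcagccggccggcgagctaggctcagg
The Notch4 window held 3 matches to AGGAAG, which began 245, 197 and 73 bases before the RefSeq start. Of the 9 windows of the members, 2 held AGGAAG (Notch4 and 1 of the windows of Dll1), against 29.5% of all 32851 windows. The RBPJ core TGGGAA and the CArG box bound by serum response factor, likewise searched on both strands, were in 0 of the 9 windows and in 21.6% and 1.47% of all windows. A match or its absence says only which letters are in a window.

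The table held 11789 barcodes with 51540177 unique molecular identifiers (UMIs, each a captured transcript). The 10947 barcodes kept had more than 800 and fewer than 100000 UMIs, a median of 2650, and under 15% mitochondrial UMIs. A barcode entered a class when it held at least 3 of the 8 markers of that class and of no other, or, for acinar and erythroid barcodes, when digestive enzymes or globins made up at least 20% of its UMIs, and 8968 barcodes (81.9%) entered one. There were 159 endothelial barcodes, 134 mural barcodes (89 smooth muscle, 35 pericyte and 10 with as many markers of either), 5540 fibroblast barcodes and 947 epithelial barcodes (807 acinar, 75 ductal and 65 acinar with ductal markers). Markers of 2 or more classes were held by 1456 barcodes (13.3%). Among these were 178 barcodes that held the endothelial and the mural markers and no others, with a median of 6296.5 UMIs against 2882 in endothelial and 1863.5 in mural barcodes, and they are described after the classes. Levels are UMIs of the gene per 1000000 UMIs of the class (CPM).

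The classes were checked on genes that no class was chosen on. Tek, Erg and Robo4, endothelial genes, were at 300, 239 and 116 CPM in endothelial barcodes and at 10.6, 7.95 and 0 CPM in mural barcodes, although fibroblasts also held Tek, at 98.0 CPM. Pdgfrb and Mcam, mural genes, were at 440 and 485 CPM in mural barcodes, but Mcam was also at 221 and Pdgfrb at 49.1 CPM in endothelial barcodes. Epcam and Cdh1, epithelial adhesion genes, were at 178 and 169 CPM in epithelial barcodes and at no more than 2.65 CPM in endothelial and mural barcodes. RNA of other cells was present everywhere, since the fibroblast transcript Dcn, at 5339 CPM in fibroblasts, was at 79.3 CPM in endothelial, 143 CPM in mural, 109 CPM in epithelial and 66.3 CPM in 398 erythroid barcodes. In those erythroid barcodes, which should lack the Notch genes, the 10 members ranged from 0 to 3.01 CPM. Each rested on 2 UMIs or fewer, below 3 counts (4.52 CPM), and the interval at 2 UMIs ran from 0.365 to 10.9 CPM. The range is therefore a rough guide to RNA of other cells and not an upper limit.

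**Figure D1:**
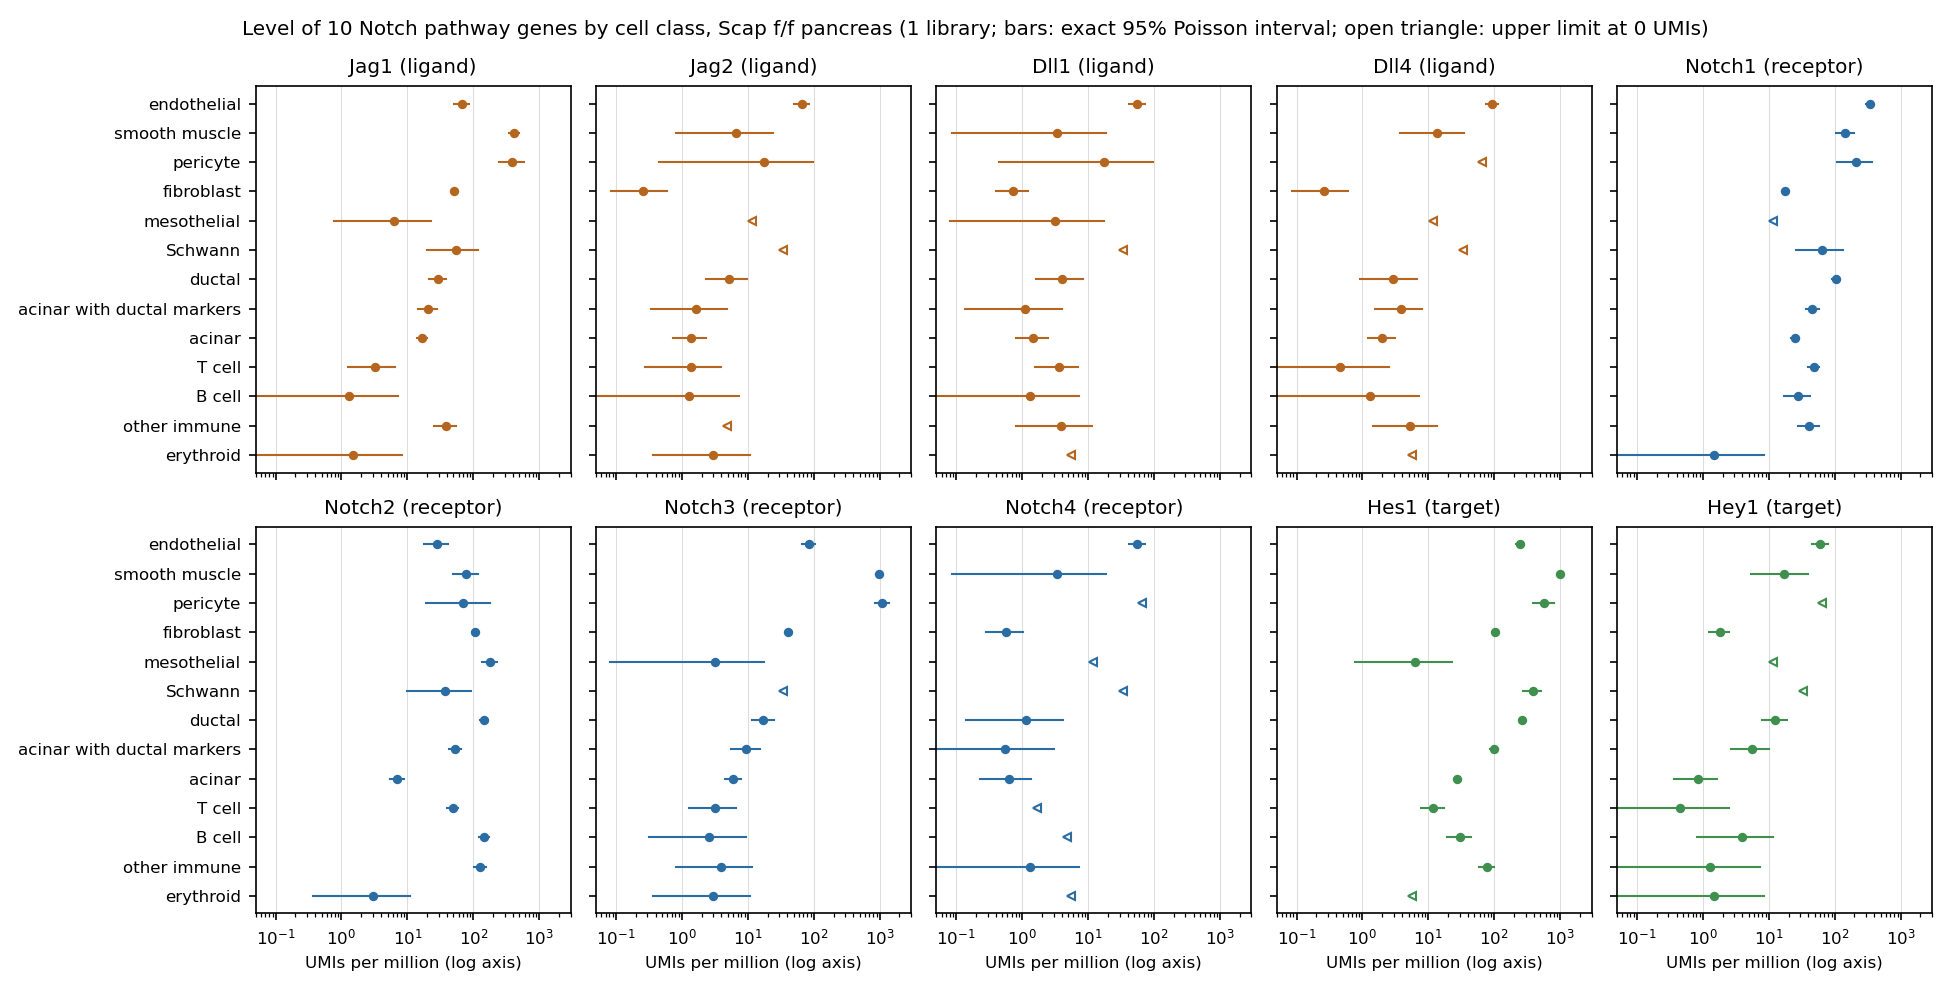
Level of each of the 10 Notch genes (CPM, log axis) in 13 cell classes of the Scap f/f library. Points are summed UMIs of the class, bars the exact 95% Poisson interval, and open triangles the upper limit where no UMI was found; Dll4, Jag2, Dll1, Notch4 and Hey1 stood highest in endothelial barcodes and Notch3, Jag1 and Hes1 in smooth muscle and pericyte barcodes.

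Among the ligands, Dll4, which marks sprouting and arterial endothelium, was highest in endothelial barcodes. It stood at 92.7 CPM (exact 95% Poisson interval 73.8 to 115, 83 UMIs in 47 of 159 barcodes), against 10.6 CPM in mural barcodes (2.89 to 27.1, 4 UMIs) and 2.39 CPM in epithelial barcodes (1.62 to 3.39, 31 UMIs). Fibroblasts gave 5 Dll4 UMIs over 5540 barcodes, or 0.259 CPM. Jag2 was at 65.9 CPM in endothelial barcodes (50.2 to 85.0), 7.95 CPM in mural barcodes on 3 UMIs, and 1.92 CPM in epithelial barcodes (1.25 to 2.84). Dll1 was at 55.8 CPM in endothelial barcodes (41.4 to 73.6), 5.30 CPM in mural barcodes on 2 UMIs and 1.77 CPM in epithelial barcodes (1.12 to 2.66). Over the 12 classes of at least 50 barcodes, all 3 of these ligands were highest in the endothelium and stood apart there from the class next in order, while neighbors further down did not differ beyond their intervals. One barcode gave 9 of the 50 endothelial Dll1 UMIs, and another gave 11 of the 83 Dll4 UMIs.

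Jag1, the other Jagged ligand, had a different order. It was at 418 CPM in smooth muscle barcodes (348 to 499, 124 UMIs) and 388 CPM in pericyte barcodes (243 to 587, 22 UMIs), then at 67.0 CPM in endothelial barcodes (51.1 to 86.3). Fibroblasts were at 51.6 CPM (48.4 to 54.9) and Schwann barcodes at 54.8 CPM (20.1 to 119). From endothelial through Schwann and fibroblast down to acinar barcodes, no neighbors in the order of Jag1 levels differed beyond their intervals. Ductal and acinar barcodes held 28.8 CPM (21.4 to 37.9) and 16.7 CPM (14.2 to 19.5). Fibroblasts held 45.5% of all Jag1 UMIs, with 39.3% of all UMIs of the library, whereas mural barcodes held 7.45% of Jag1 with 0.767% of all UMIs.

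Of the receptors, Notch1, which acts in many tissues, was highest in the endothelium and present in mural, ductal and T cell classes too. Endothelial barcodes held 341 CPM (303 to 381, 305 UMIs in 85 of 159 barcodes), mural barcodes 159 CPM (121 to 205), ductal barcodes 105 CPM (90.6 to 122), T cells 48.1 CPM (39.3 to 58.1) and acinar barcodes 25.0 CPM (21.9 to 28.4). Mesothelial barcodes gave 0 Notch1 UMIs, for which 3 counts would be 9.51 CPM. One endothelial barcode held 33 of the 305 endothelial UMIs.

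Notch2, a receptor known from marginal zone B cells and the liver's bile ducts, was highest outside the vessels. Its levels in mesothelial (177 CPM, 134 to 230), B cell (146 CPM, 120 to 176) and ductal barcodes (143 CPM, 126 to 162) did not differ from neighbor to neighbor beyond their intervals. Fibroblasts, at 107 CPM (102 to 112), held 54.9% of all Notch2 UMIs, with 39.3% of all UMIs of the library. Among immune barcodes Notch2 was not particular to B cells. The 28 myeloid barcodes, too few to enter the order, held 179 CPM (109 to 276, 20 UMIs), and other immune barcodes 125 CPM (101 to 153). Endothelial barcodes were at 27.9 CPM (18.1 to 41.2, 25 UMIs) and acinar barcodes at 6.98 CPM (5.40 to 8.88). After thinning every barcode to 800 UMIs, 16.0% of ductal, 11.5% of B cell, 7.96% of fibroblast and 0.496% of acinar barcodes still had a Notch2 UMI, with 0.251% in erythroid barcodes. Without thinning these shares were 82.7%, 20.9%, 27.5%, 6.94% and 0.503%, at median depths of 15767, 1491.5, 2717.5, 4892 and 1441 UMIs.

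Notch3, the receptor of mural cells, was at 985 CPM in smooth muscle barcodes (876 to 1105, 292 UMIs in 68 of 89 barcodes) and at 1093 CPM in pericyte barcodes (838 to 1401, 62 UMIs in 22 of 35 barcodes). Endothelial barcodes followed at 84.9 CPM (66.9 to 106), fibroblasts at 41.5 CPM (38.7 to 44.5) and ductal barcodes at 17.3 CPM (11.6 to 24.6), each apart from the class before it. Thinned to 800 UMIs, 50.7% of mural barcodes kept a Notch3 UMI, against 73.9% without thinning, with 6.92% of endothelial, 3.77% of fibroblast and 0.251% of erythroid barcodes when thinned. One smooth muscle barcode held 42 of the 292 UMIs. Notch4, the receptor of endothelial cells, was at 55.8 CPM in endothelial barcodes (41.4 to 73.6, 50 UMIs in 37 barcodes), whereas the mural barcodes together gave 1 UMI and the 947 epithelial barcodes 9 UMIs (0.693 CPM, 0.317 to 1.32). T cells and B cells gave no Notch4 UMI, which allows up to 1.36 and 3.91 CPM by the floor of 3 counts.

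Of the targets, Hes1 was highest in mural and Hey1 in endothelial barcodes. Hes1, a repressor that Notch turns on, was at 989 CPM in smooth muscle barcodes (879 to 1109), 564 CPM in pericyte barcodes (386 to 797) and 384 CPM in Schwann barcodes (277 to 519). Ductal barcodes at 260 CPM (236 to 285) and endothelial barcodes at 241 CPM (210 to 276) came next and did not differ beyond their intervals, and acinar barcodes were at 27.6 CPM (24.4 to 31.2). Hey1, a repressor active in arterial endothelium, was at 60.3 CPM in endothelial barcodes (45.3 to 78.7), 13.2 CPM in mural barcodes (4.30 to 30.9, 5 UMIs), 12.7 CPM in ductal barcodes (7.93 to 19.2) and 0.846 CPM in acinar barcodes (0.365 to 1.67).

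**Figure D2:**
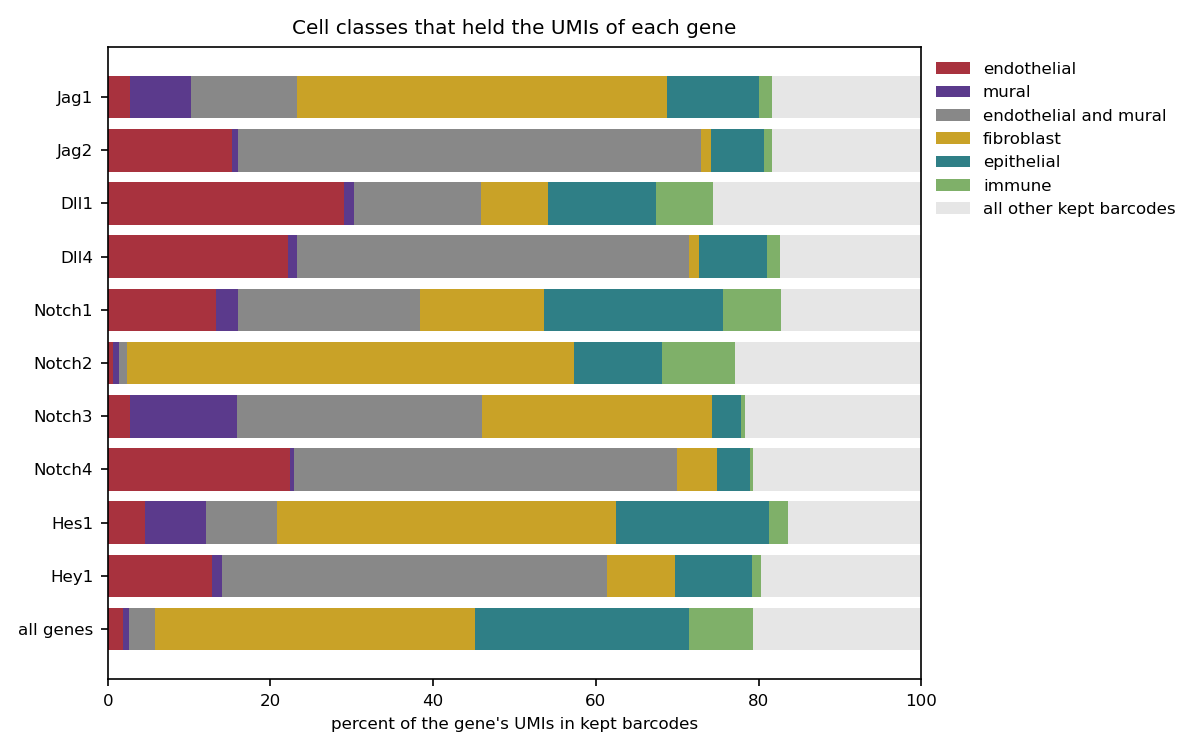
Percent of the UMIs of each Notch gene, and of all genes, held by each set of barcodes in the Scap f/f library. Barcodes marked as endothelial and mural at the same time held 3.23% of all UMIs but 48.1% of Dll4 and 30.1% of Notch3 UMIs. Fibroblasts held 39.3% of all UMIs and 54.9% of Notch2 UMIs.

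Doubly marked barcodes carried much of the vessel signal. The 178 barcodes with both endothelial and mural markers held 56.8% of the UMIs of Jag2, 48.1% of Dll4, 47.1% of Notch4, 47.4% of Hey1 and 30.1% of Notch3, with 3.23% of all UMIs. Their levels were 113 CPM of Dll4 (97.2 to 131), 66.0 CPM of Notch4 (54.0 to 79.9), 537 CPM of Notch3 (502 to 575) and 180 CPM of Jag1 (160 to 202). Notch1 was at 321 CPM (294 to 350), Hes1 at 259 CPM (235 to 285) and Notch2 at 23.9 CPM (16.9 to 32.8). The intervals of Dll4 and Notch4 overlapped those of endothelial barcodes, and Notch3 and Jag1 lay between the endothelial and mural levels. Whether these barcodes were pairs of cells or single cells was not tested.

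Set against the epithelium, 9 of the 10 members were higher in endothelial barcodes, and Notch2 was not. A gene counted as higher or lower when its ratio of CPM reached 2-fold and the exact 95% interval of the ratio did not include 1, and 38.9% of the 13032 genes with at least 20 UMIs over both classes were higher by this rule and 7.68% lower, where no member was. The median log2 ratio of the members was 3.85, against 0.80 over all those genes. The largest ratios were those of Notch4, at 80.6-fold (39.2 to 186), Dll4, at 38.8-fold (25.4 to 60.7), Jag2, at 34.2-fold (21.1 to 57.1), and Dll1, at 31.5-fold (18.9 to 54.2). Their epithelial levels, from 0.693 CPM for Notch4 to 2.39 CPM for Dll4, lay within the 0 to 3.01 CPM of the members in erythroid barcodes. The size and order of these ratios therefore rest on very low epithelial levels. Hey1 was 19.6-fold (12.8 to 30.3), Notch3 10.6-fold (7.78 to 14.4), Notch1 8.82-fold (7.62 to 10.2), Jag1 3.55-fold (2.63 to 4.73) and Hes1 3.52-fold (3.02 to 4.09) higher. The ratio of Notch2 was 0.885 (0.566 to 1.32).

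In mural barcodes, 7 of the 9 members with enough UMIs were higher than in epithelium, and none was lower, beside 30.3% and 6.18% of 12775 genes, and the median log2 ratio was 2.11, against 0.80 over all genes. Notch3 was 125-fold (100.2 to 157), Jag1 22.9-fold (18.7 to 28.0) and Hes1 13.7-fold (12.1 to 15.5) higher, and Notch1 4.11-fold (3.09 to 5.39). Dll4, Hey1 and Notch2 passed as well, with lower interval bounds of 1.14, 1.33 and 1.48. These last 3 did not hold when digestive enzyme and globin UMIs were taken out of the totals, which left 4 members higher. Jag2 and Dll1, with 3 and 2 mural UMIs, had intervals of 0.798 to 13.5 and 0.342 to 12.1. Epithelial barcodes held 104 Notch3 UMIs (8.01 CPM) beside 416 UMIs (32.0 CPM) of Rgs5, a pericyte marker. The source of the epithelial Notch3 was not tested.

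**Figure D3:**
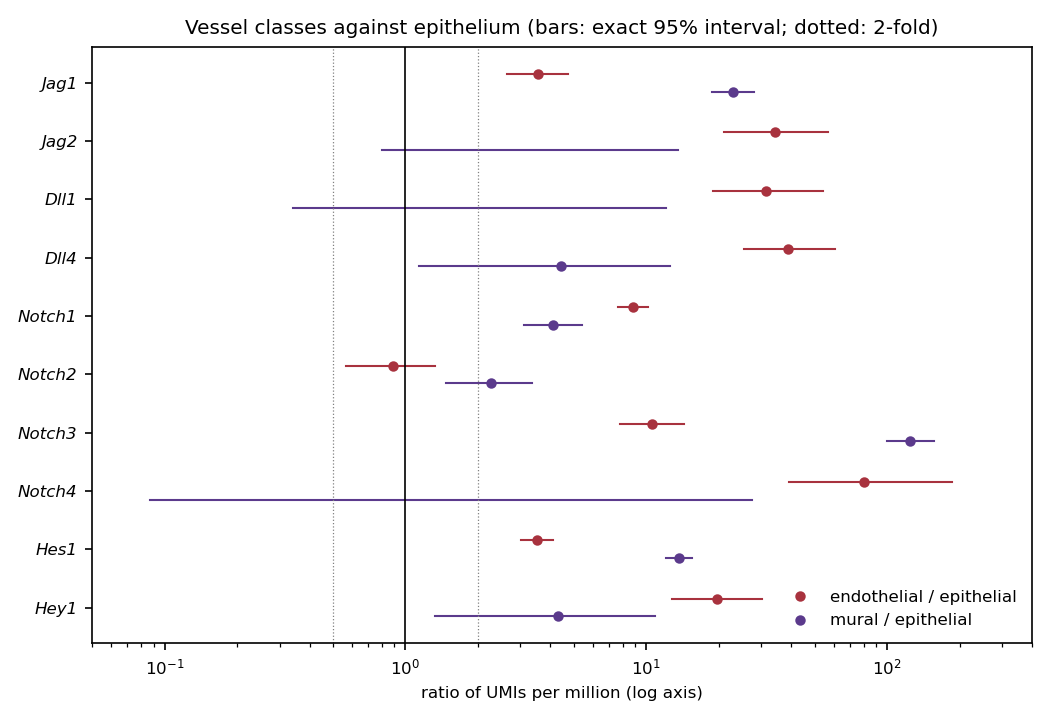
Ratio of the level of each Notch gene in endothelial (red) and mural (purple) barcodes to that in epithelial barcodes, on a log axis, with exact 95% intervals. Bars without a point have 3 UMIs or fewer on a side; Notch3 reached 125-fold in mural barcodes and Notch4 80.6-fold in endothelial barcodes, while the endothelial interval of Notch2 included 1.

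Endothelial and mural barcodes differed from each other in every member by the 2-fold rule. Higher in endothelial barcodes were 6 members, with 17.5% of 8281 genes, and lower were 4, with 11.2% of genes. Mural barcodes gave only 3 UMIs of Jag2, 2 of Dll1, 4 of Dll4, 1 of Notch4 and 5 of Hey1. These genes reached the 20 UMIs of the rule through the endothelial side. The count of 6 therefore rests largely on very few mural UMIs. Dll4 was 8.75-fold (3.29 to 32.9), Hey1 4.55-fold (1.83 to 14.6) and Notch1 2.14-fold (1.62 to 2.88) higher in the endothelium, and for Jag2, Dll1 and Notch4 the intervals ran from 2.70 to 41.3, from 2.77 to 89.4 and from 3.61 to 849. In the other direction, Notch3 was 11.8-fold (9.18 to 15.3), Jag1 6.45-fold (4.77 to 8.82), Hes1 3.89-fold (3.27 to 4.63) and Notch2 2.56-fold (1.43 to 4.60) higher in mural barcodes.

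Jag1 and Notch3 were higher in endothelial barcodes that held mural UMIs than in those that held none. Of the 159 endothelial barcodes, 83 held at least 1 UMI of the 16 mural marker genes and 76 held none, a split made after the values had been seen. In the 83, Notch3 was at 125 CPM (98.3 to 157) and Jag1 at 93.0 CPM (70.1 to 121). Without mural UMIs, Notch3 was at 6.58 CPM (0.797 to 23.8, 2 UMIs) and Jag1 at 16.4 CPM (5.34 to 38.4, 5 UMIs). Their ratios to epithelium were then 0.872 (0.281 to 2.06) for Jag1 and within 0.0982 to 3.04 for Notch3, so that 7 of the 9 members higher in the endothelium stayed past the rule. The interval of the ratio between the sets was 5.08 to 160 for Notch3 and 2.28 to 18.1 for Jag1. Dll4 was at 93.0 CPM with and 92.1 CPM without mural UMIs (ratio 1.01, 0.630 to 1.65), and the intervals of Jag2, Dll1, Notch1, Notch2, Notch4, Hes1 and Hey1 also included 1. Without mural UMIs, however, 1 barcode gave 33 of the 93 Notch1 UMIs and 1 gave 25 of the 81 Hes1 UMIs. With mural UMIs the largest parts from 1 barcode were 20 of 212 and 20 of 135. The likeness of the sets in Notch1 and Hes1 thus rests in part on single barcodes. Barcodes without mural UMIs were shallower, with a median of 2265.5 UMIs against 3799. Rgs5 is a pericyte gene and 1 of the 16 mural marker genes used in the split and in the mural gate. Proportions to Rgs5 therefore depend in part on how the sets were made. For each 100 Rgs5 UMIs, endothelial barcodes with mural UMIs held 16.9 Notch3 UMIs and the doubly marked barcodes 19.8. Pericytes held 22.1, smooth muscle barcodes 86.4 and all mural barcodes 50.4. Beside 100 Notch3 UMIs there were 74.3 Jag1 UMIs in endothelial barcodes with mural UMIs. The doubly marked barcodes had 33.5, pericytes 35.5, smooth muscle barcodes 42.5 and all mural barcodes 43.2. The source of the endothelial Jag1 and Notch3 was not tested.

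Without endothelial UMIs, 4 members stayed higher in mural barcodes than in epithelium, against 7 in all mural barcodes. In the 70 mural barcodes that had none, Notch3 was at 889 CPM (750 to 1047), Hes1 at 994 CPM (846 to 1160) and Jag1 at 383 CPM (293 to 491). Dll1, Dll4 and Notch4 gave 0 UMIs there, which allows up to 18.5 CPM. Notch1 remained at 105 CPM (61.1 to 168), 2.72-fold above epithelium (1.57 to 4.39), from 159 CPM in all mural barcodes. Notch2 was at 43.2 CPM (ratio to epithelium 1.37, 0.547 to 2.85), and Hey1 had 2 UMIs (interval of the ratio 0.470 to 15.5), so that their calls and that of Dll4 were lost. In mural barcodes as a whole, 66 of 134 (49.3%, exact 95% interval 40.5 to 58.0) held UMIs of both Jag1 and Notch3, and 66 held both Notch3 and Hes1. Barcodes with both Jag1 and Notch3 were deeper, with a median of 2562 UMIs against 1501 in the rest.

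**Figure D4:**
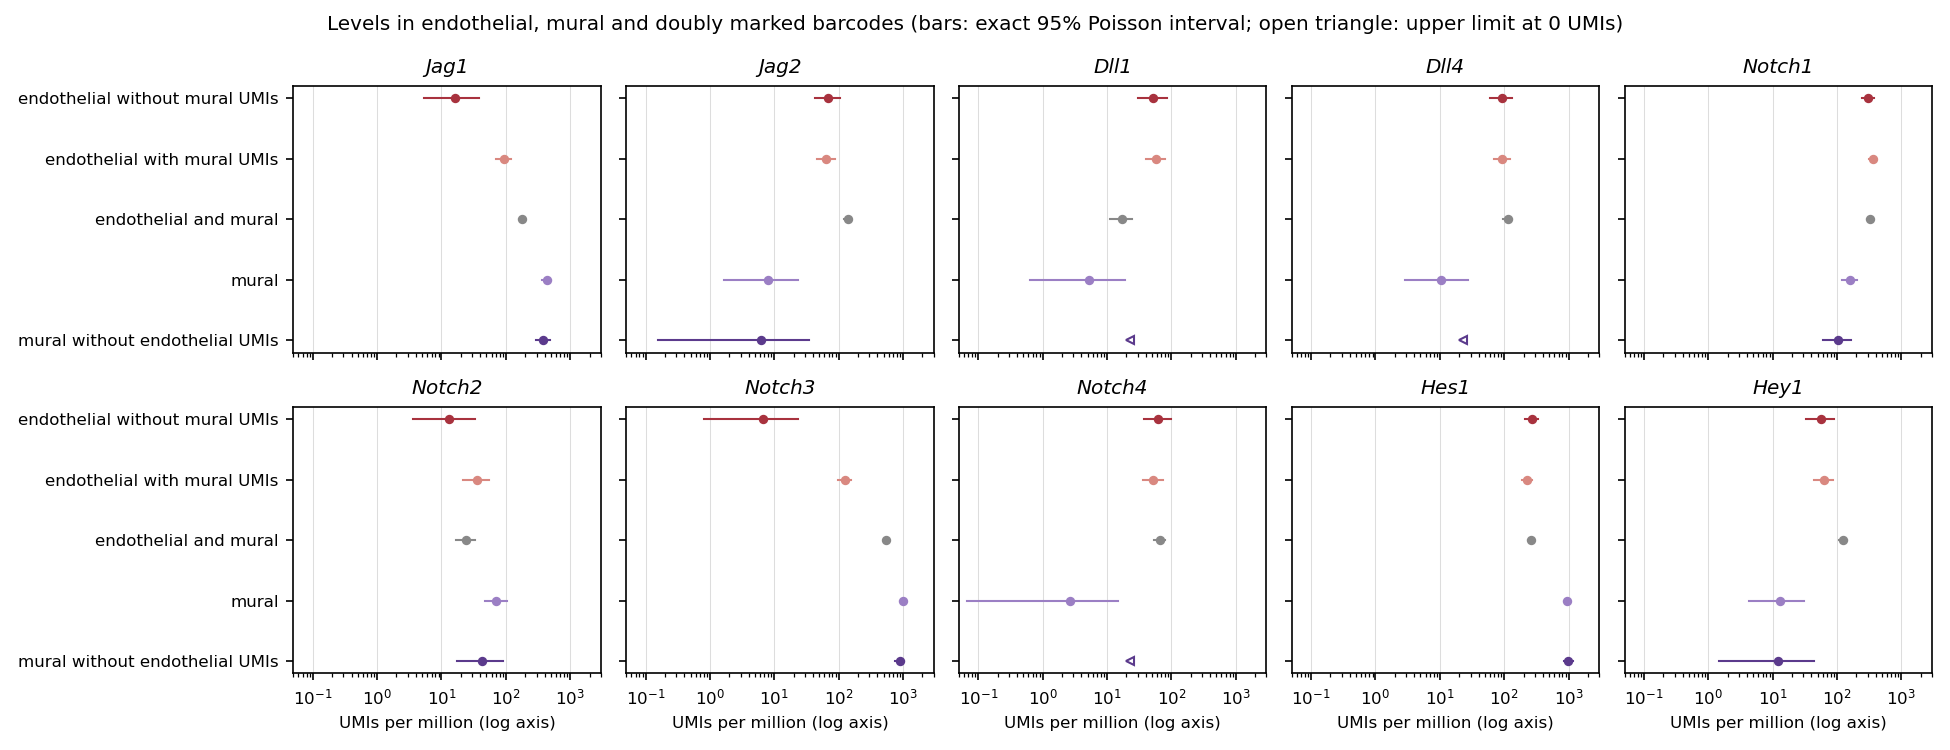
Level of each Notch gene (CPM, log axis) in endothelial barcodes without and with UMIs of mural markers, in barcodes with both sets of markers, and in mural barcodes, all and without endothelial UMIs. Bars are exact 95% Poisson intervals; Notch3 went from 6.58 to 125 CPM between the endothelial sets while Dll4 stayed at 92.1 and 93.0 CPM.

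Smooth muscle and pericyte barcodes did not differ by the 2-fold rule in any of the 5 members with 20 or more UMIs, where 7.69% of 3396 genes were higher and 7.51% lower. The ratio of smooth muscle to pericyte was 0.901 for Notch3 (0.683 to 1.21), 1.08 for Jag1 (0.682 to 1.78), 0.686 for Notch1 (0.355 to 1.43), 1.10 for Notch2 (0.376 to 4.38) and 1.75 for Hes1 (1.21 to 2.61). The median log2 ratio was 0.11, against 0.01 over all genes. Heyl, a further Notch target, was higher in smooth muscle, at 280 CPM against 88.2 CPM (3.18-fold, 1.31 to 10.0). It was the 1 gene higher of the 13 other pathway genes tested, and 2 were lower in smooth muscle, Maml2 at 253 CPM against 582 CPM (ratio 0.435, 0.285 to 0.676) and Dtx3 at 115 CPM against 247 CPM (ratio 0.465, 0.243 to 0.938).

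Within the endothelium, 55 barcodes with at least 2 of 6 arterial markers were set beside 46 with no arterial or lymphatic marking. Their median depths were 2882 and 2106 UMIs, and 1 UMI sufficed for a marker at any depth. Left out were 4 lymphatic-marked barcodes and 54 that fell between the sets. Those 54 held Notch1 at 373 CPM (318 to 436), near the arterial-marked level, Dll4 at 69.2 CPM (46.7 to 98.7) and Notch4 at 32.3 CPM (17.6 to 54.1). Higher in the arterial-marked barcodes were 4 of the 8 members tested, with 4.99% of 4186 genes, and none was lower, with 2.72% of genes. The median log2 ratio of the members was 1.27, against 0.07 over all genes. Dll4 was at 147 CPM against 47.0 CPM (3.12-fold, 1.32 to 8.98), Notch1 at 393 against 157 CPM (2.51-fold, 1.55 to 4.26) and Hey1 at 113 against 31.4 CPM (3.60-fold, 1.28 to 14.0). Notch3 was at 144 CPM against 23.5 CPM on 3 UMIs (interval of the ratio 1.95 to 30.8). Hes1 was at 167 against 251 CPM (ratio 0.667, 0.419 to 1.08) and Notch4 at 78.6 against 78.4 CPM (ratio 1.00, 0.459 to 2.36). Rgs5 was also higher in the arterial-marked barcodes, at 895 CPM against 306 CPM. In the 19 arterial-marked and 24 other barcodes without mural UMIs, Notch3 had 0 UMIs on both sides, Dll4 5 UMIs on both sides (ratio 0.675, 0.155 to 2.93), Notch1 a ratio of 1.50 (0.653 to 3.74) and Hey1 8 against 2 UMIs (interval of the ratio 0.539 to 26.1). Of these, only Notch1 reached the 20 UMIs that the rule asks for, so for Dll4, Notch3 and Hey1 the rule could not be applied at this depth. The part of mural RNA in the arterial difference was not tested.

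**Figure D5:**
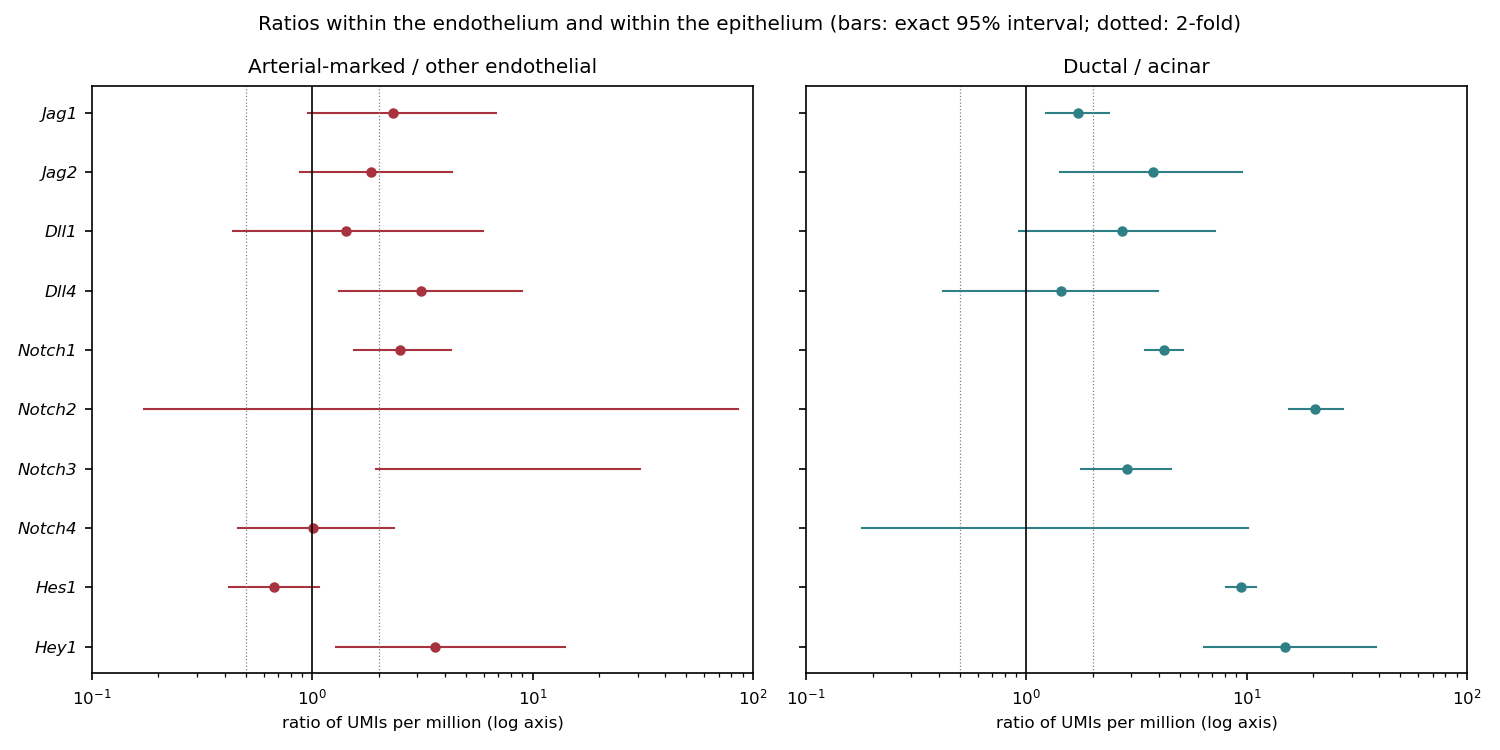
Ratios of the level of each Notch gene, on a log axis with exact 95% intervals, for arterial-marked against other endothelial barcodes (left) and for ductal against acinar barcodes (right). Bars without a point have 3 UMIs or fewer on a side. Dll4, Notch1 and Hey1 lay above 1 on the left, and Notch2, Hey1, Hes1 and Notch1 showed the highest ratios on the right, from 20.5 to 4.22. The ratio of Hey1 on the right rests on 8 acinar UMIs.

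Within the epithelium, 6 of the 9 members tested were higher in ductal than in acinar barcodes, a count near the share over all genes. The comparison was chosen after the levels had been seen. Notch2 was at 143 CPM in ductal and 6.98 CPM in acinar barcodes (20.5-fold, 15.6 to 27.4). The 65 acinar barcodes that carried ductal markers lay between them at 52.8 CPM (42.7 to 64.6). Those 65 were the deepest, with a median of 22934 UMIs against 15767 in ductal and 4892 in acinar barcodes. Whether they were single cells or pairs of cells was not tested. Hey1 was 14.96-fold (6.42 to 38.9), Hes1 9.40-fold (8.05 to 10.99), Notch1 4.22-fold (3.46 to 5.14), Jag2 3.77-fold (1.42 to 9.53) and Notch3 2.86-fold (1.78 to 4.53) higher in ductal barcodes. The acinar levels were 0.846 CPM for Hey1 on 8 UMIs and 1.37 CPM for Jag2 on 13 UMIs. Both lay within the 0 to 3.01 CPM of the members in erythroid barcodes, so the size of the Hey1 and Jag2 ratios rests on very low acinar levels. These 6 of 9 members stand beside 59.2% of 12172 genes that were higher in ductal barcodes and 2.45% that were lower. The median log2 ratio of the members was 1.91, against 1.22 over all genes. Digestive enzymes made up 37.2% of acinar UMIs. With enzyme and globin UMIs out of the totals, the ratios were 13.9 for Notch2 (10.5 to 18.5), 10.1 for Hey1 (4.33 to 26.2), 6.35 for Hes1 (5.44 to 7.42) and 2.85 for Notch1 (2.34 to 3.47), while those of Jag2 (0.959 to 6.43) and Notch3 (1.93, 1.20 to 3.06) no longer met the rule. No share over all genes is given beside these ratios. Jag1 was 1.72-fold (1.23 to 2.38) and Dll4 1.43-fold (0.418 to 3.96) by the main totals. Both Notch2 and Hes1 UMIs were in 49 of the 75 ductal barcodes (65.3%, 53.5 to 76.0), which had a median of 27083 UMIs against 7026.5 in the rest.

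Fibroblasts, the largest class, held Notch2, Hes1, Jag1 and Notch3. Against epithelium, Notch3 was 5.18-fold (4.22 to 6.42), Notch2 3.39-fold (3.05 to 3.78) and Jag1 2.74-fold (2.38 to 3.16) higher, and Dll4, Jag2, Dll1 and Notch1 were lower. The 3 of 10 members that were higher were near the share over all genes, 35.9% of 15147. The 4 that were lower stand beside 12.9% of genes. The epithelial levels of Dll4, Jag2 and Dll1 were only 2.39, 1.92 and 1.77 CPM, within the 0 to 3.01 CPM of the members in erythroid barcodes. For these 3 genes the call thus sets 1 very low level beside another. Notch1 was at 38.6 CPM in epithelium and 18.0 CPM in fibroblasts. The median log2 ratio of the members was -0.52, against 0.64 over all genes. This comparison was also chosen with the levels known. In the 3366 fibroblast barcodes without mural UMIs, Notch3 was at 31.0 CPM (27.6 to 34.6), Jag1 at 48.1 CPM (43.8 to 52.6) and Notch2 at 111 CPM (104 to 117). All 3 stayed more than 2-fold above epithelium by the main totals. Jag1, at 2.55-fold (2.18 to 2.99), was nearest to the limit. Digestive enzymes made up 37.2% of acinar UMIs, and the fibroblast ratios were not recomputed without them, so the call of Jag1 may depend on these totals. Against mural barcodes, 5 of the 6 members tested (Jag1, Notch1, Notch3, Hes1 and Hey1) were lower in fibroblasts, beside 11.7% of genes lower and 8.61% higher, and Notch3 was 24.1-fold (21.2 to 27.3) higher in mural barcodes.

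Lymphocytes differed in Notch2 and Hes1. B cells held 146 CPM of Notch2 (120 to 176, 112 UMIs) and T cells 48.5 CPM (39.8 to 58.6, 107 UMIs), a ratio of T to B cells of 0.332 (0.252 to 0.437), and Hes1 was at 30.0 CPM (19.0 to 45.0) in B cells and 11.8 CPM (7.70 to 17.3) in T cells (ratio 0.393, 0.216 to 0.721), where 1 barcode held 11 of the 26 UMIs. These were 2 of the 3 members tested, none was higher, and of 9431 genes 8.49% were lower and 8.44% higher in T cells by the 2-fold rule. Notch1, a receptor that T cell development requires, was 1.75-fold higher in T cells (1.09 to 2.95), short of the rule. The comparison was chosen after the levels had been seen.

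Beyond the 10 members, 38 further genes of the pathway were read, of which 33 had enough UMIs beside epithelium. In endothelial barcodes 17 were higher and 2 lower, with a median log2 ratio of 1.05, and in mural barcodes 11 were higher and 2 lower, with a median of 0.56, each beside 0.80 over all genes. Over all genes tested, 38.9% were higher and 7.68% lower in endothelial barcodes, and 30.3% were higher and 6.18% lower in mural barcodes, so the mural count of 11 in 33 was near that share. Among the targets, Hey2 was at 164 CPM in mural barcodes on 62 UMIs against 3 UMIs in epithelium (interval of the ratio 232 to 3544), Heyl was 31.9-fold (23.7 to 43.0) and Nrarp, a feedback inhibitor, 35.9-fold (25.4 to 50.9) higher. In endothelial barcodes Nrarp was 10.9-fold higher (7.42 to 15.9), whereas Hey2 and Heyl had 5 UMIs each. Of the genes that modify the receptors, Mfng, which adds sugars to Notch, was at 26.8 CPM in endothelial barcodes (49.7-fold, 20.8 to 137), and Dtx1, a regulator of Notch turnover, at 79.3 CPM (19.4-fold, 13.4 to 28.3). Of the nuclear partners, Maml2, a coactivator, was 11.9-fold (10.6 to 13.4) higher in endothelial and 6.40-fold (5.22 to 7.80) higher in mural barcodes, and Rbpj was 2.64-fold (1.90 to 3.60) higher in mural barcodes and 1.57-fold (1.19 to 2.04), short of the rule, in endothelial barcodes. Rbpjl, the acinar relative of Rbpj, was lower in both vessel classes, at 6.70 and 5.30 CPM against 203 CPM.

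The other genes past the 2-fold rule against epithelium were of several roles. In both vessel classes Maml1 (3.93-fold endothelial, 2.59-fold mural), Spen (2.07 and 2.28), Neurl1b (6.24 and 8.61), Numb (4.98 and 2.24) and Dtx3 (8.04 and 17.0) were higher. In endothelial barcodes so were the proteases and secretase parts that cut Notch, with Adam10 3.34-fold, Adam17 3.04-fold, Ncstn 3.20-fold and Psen2 2.59-fold, and Lfng (2.62), Pofut1 (2.61), Poglut1 (2.54) and Mib2 (2.46). Numbl was 3.60-fold higher in mural barcodes. The ratios of the pathway genes are given by the main totals only, with digestive enzyme and globin UMIs left in. Taking these out undid the weakest mural calls among the members. Pathway genes near 2-fold, such as Spen, may likewise depend on the totals. Dtx4 was lower in endothelial and Lfng in mural barcodes, on 3 UMIs (interval of the ratio 0.0555 to 0.809) and on 1 UMI (0.00402 to 0.897).

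The genes whose levels over 12 classes of at least 50 barcodes were most like those of each member are given as a description, since the classes share 1 library. The measure was Pearson's r of log2(CPM + 5), and Jag2 and Notch4 had 97 and 72 UMIs over these classes, so theirs rest on few UMIs. For Dll4 these were Scarf1 (0.97), Adcy4 (0.96) and Rbp7 (0.96), for Notch4 Sox18 (0.99), Sox7 (0.99) and Scarf1 (0.99), for Jag2 Sox18 (0.96), Depp1 (0.96) and Dysf (0.96), for Dll1 Scarb1 (0.97), Rasip1 (0.96) and Selp (0.95), and for Hey1 Depp1 (0.93), Ecscr (0.93) and Crybb3 (0.92). For Notch3 they were Gm17501 (0.97), Ppp1r14a (0.96) and Sema5b (0.96), and for Jag1 Peli2 (0.91) and Tiam2 (0.90). Hes1 was most like Lmnb2 (0.94), Gpr137 (0.93) and Zfp248 (0.93), Notch1 like Zfand4 (0.92), Eogt (0.88) and Lmnb2 (0.88), and Notch2 like Atf1 (0.91), Tax1bp1 (0.91) and Tep1 (0.91). Among the members themselves, Notch4 with Dll4 reached 0.96 and Jag1 with Hes1 0.89, while Notch2 with Dll4 stood at -0.07.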

How the data were processed

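The authors prepared the library from dissociated, dead-cell-depleted tissue with the 10x Genomics 3′ v3.1 kit and aligned reads to mm10 with Cell Ranger 7.1.0. The deposited values are raw counts: each entry is the UMI count of 1 gene in 1 barcode, and no scaling had been applied. The lowest barcode total was 500 UMIs, so the limits of the study's methods had not been applied. Ambient RNA was not removed in the main values, and no doublet caller was run, barcodes with markers of 2 or more classes being kept out of the classes instead.

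The members and all lists and comparisons were chosen with earlier results of these data known. A marker counted at 1 UMI and at least 1 UMI per 10000. Acinar barcodes had at least 20% of UMIs from 12 digestive enzyme genes and erythroid barcodes at least 20% from globin genes. Non-epithelial barcodes above either share were treated as mixed. The upper limit of 100000 UMIs stood in place of the 10000 of the study's methods, and 818 kept barcodes lay above 10000. The fibroblast and the mesothelial list were both reached by 429 barcodes, which were mixed.

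UMIs were summed per class and scaled to CPM with exact 95% Poisson intervals. Shares have Clopper-Pearson intervals and ratios exact conditional binomial intervals. With 3 or fewer UMIs on a side the text gives the interval and no fold, but the 2-fold rule still used the ratio, and a side at 0 was set to the floor of 3 counts. With 1 library no p-values were computed. Alternatives were keeping barcodes under 10000 or over 1500 UMIs, a mitochondrial limit of 5%, 4 markers, mixed barcodes put in a class, an enzyme share of 10%, the mean of per-barcode CPM, an ambient profile subtracted, enzyme and globin UMIs out of the totals, at least 50 UMIs, and vessel barcodes without UMIs of the other vessel class. Named genes were the 10 members, every gene of the list of 38 past the rule against epithelium, and the 3 genes most like each member, of which 1 is not reported here. Heyl, Maml2 and Dtx3 between mural types and the check genes were named beside them. Gene symbols come from the deposited table, and members were matched to RefSeq windows and GENCODE M21 by symbol. Python 3.11.15, numpy 2.4.6, scipy 1.17.1, pandas 2.3.3 and matplotlib 3.10.9 were used, and the interval, ratio and thinning functions were tested on simulated data. Library totals and class depths are given with the results. The reads per UMI are not known, so UMIs measure depth here.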

Additional observations from a re-analysis of the deposited data

How the results depend on the processing

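No paired analysis was possible because there was 1 library. Of 419 log2 ratios of members under the alternatives, 3 of which were added after the data had been seen, 360 lay within the interval of the main value, 56 lay outside it without a change of sign in a gene past the rule, and 3 changed sign. In the arterial comparison without mural UMIs, Dll4 had a log2 ratio of -0.57 and 0 members were higher (main 4), on 19 and 24 barcodes, where Dll4, Notch3 and Hey1 had too few UMIs for the rule. The other 2 arose in endothelial barcodes without mural UMIs, where the log2 ratio to epithelium was -0.20 for Jag1 and -0.28 for Notch3, and 7 members were higher instead of 9, and against mural barcodes 4 instead of 6. Counts of members that moved were 4 higher in mural than epithelial barcodes (main 7), both with enzyme and globin UMIs out of the totals and in mural barcodes without endothelial UMIs, 1 lower in endothelial than epithelial barcodes (Notch2, log2 ratio -1.35) by the mean of per-barcode CPM, and 1 higher in smooth muscle than pericyte barcodes (Hes1, log2 ratio 1.26) when mixed barcodes entered the class with the most markers. With at least 50 UMIs over both sides, the genes past the rule numbered 548 lower in endothelial than mural barcodes (main 926), 90 higher and 44 lower in arterial-marked barcodes (main 209 and 114), and 85 lower in smooth muscle than pericyte barcodes (main 255), since fewer genes were tested. Under the remaining alternatives 3 to 6 members were higher in arterial-marked barcodes. With the upper limit of 10000 UMIs the endothelial log2 ratio to epithelium was 6.23 for Jag2, 6.19 for Dll4 and 6.19 for Hey1. The ductal, fibroblast and lymphocyte comparisons had no such alternatives beyond those given with them. Depth limits the pericytes, where 3 UMIs amount to 52.9 CPM, the other endothelial barcodes without mural UMIs, where they amount to 61.0 CPM, and the mural levels of Jag2, Dll1 and Notch4.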

Other observations

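The doubly marked barcodes were not a plain average of endothelial and mural levels for every member. Against endothelial barcodes without mural UMIs, Jag2 was at 138 CPM and 69.1 CPM (2.00-fold, 1.28 to 3.30) and Hey1 at 126 CPM and 55.9 CPM (2.25-fold, 1.37 to 3.94), although mural barcodes held 7.95 and 13.2 CPM. Dll1 went the other way, at 17.0 CPM and 52.6 CPM (ratio 0.323, 0.168 to 0.641). Hes1 stayed at the endothelial level, at 259 CPM and 266 CPM (ratio 0.972, 0.765 to 1.25), although mural barcodes held 938 CPM. The arterial-marked endothelial barcodes held Jag2 at 130 CPM (91.9 to 178) and Hey1 at 113 CPM (77.6 to 158), near the doubly marked levels. Their Dll1, at 44.4 CPM (23.7 to 76.0), was nearer to that of endothelial barcodes without mural UMIs. No explanation for these values was tested.

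Schwann barcodes, the 53 barcodes of the peripheral glia, held Hes1 at 384 CPM, and Notch1 at 64.0 CPM (25.7 to 132, 7 UMIs) and Jag1 at 54.8 CPM on 6 UMIs. Among the receptors, Notch3 and Notch4 gave no UMI there, which allows up to 27.4 CPM.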
